A study of Mus musculus with 11 samples.

Results

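The 9 genes described here encode hormone and orphan nuclear receptors, with 1 of their targets and 1 coactivator, that are known for roles in red cell formation and in the silencing of embryonic globin genes. They were chosen by gene symbol in the array's annotation: Nr3c1, Tsc22d3, Thra, Rxra, Rara, Ppara, Nr2c1, Nr2c2 and Ncoa4, of 18193 genes with a probe set. A probe set is a group of short probes for 1 transcript. The 9 genes had 33 probe sets, and for each gene the one with the highest mean log2 signal over the 11 arrays was taken as the main one. The main probe sets of all 9 reached the array's median signal on 2 or more arrays, so all 9 were among the 13100 genes tested. Rara met this on 4 arrays and Ppara on 6, which were all those of R3, R4 and R5. Ppara therefore passed only through the stages in which it was brighter.

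The samples were fetal liver cells of E14.5 C57/Bl6 mouse embryos, stained for CD71, the transferrin receptor, and Ter119, an antigen of maturing erythroid cells, and sorted into the stages R1, R2, R3, R4 and R5. In the sorting scheme cited with the samples R1 is the least mature stage and R5 the most mature. Arrays numbered 2 for R1, 3 for R2, 3 for R3, 1 for R4 and 2 for R5, each of total RNA, and the labels name no treatment or genetic change for any group. How many livers went into an array and whether a stage's arrays stand for separate litters is not given in the sources used here, so the p-values rest on the spread among arrays of a stage, and that spread may be technical only. Replicate sets shared an extraction date per the labels, which do not say whether a set is the arrays of a stage or those of a replicate number. If it is a stage, date and stage cannot be told apart in any comparison, and if it is a number, arrays of like number are paired.

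A nuclear receptor binds DNA at short hexamer sites and switches its coregulators between repression and activation, in hormone receptors when the ligand binds. The glucocorticoid receptor, encoded by Nr3c1, prolongs the division of erythroid progenitors under stress, and Tsc22d3 (GILZ) is a gene it directly induces. Thra, Rara and Ppara encode receptors for thyroid hormone, retinoic acid and fatty acids, which share the partner encoded by Rxra. Nr2c1 (TR2) and Nr2c2 (TR4) encode orphan receptors that bind repeated hexamers in embryonic globin promoters as a repressive complex. Ncoa4, first described as a receptor coactivator, also carries ferritin to the lysosome, where its iron is released for heme.

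The upstream windows of 3 genes are shown because they hold the kinds of site these receptors use: Hbb-y, the embryonic beta-type globin gene that TR2 and TR4 repress, Ncoa4, the member with the largest change that passed a test on its main and its other probe set, and Tsc22d3, the glucocorticoid target. Each is the 250 bases before a RefSeq start, 5′ to 3′ on the gene's strand, in the build GRCm38.p6. Capitals mark the hexamers AGGTCA and also GGGTCA, which read TGACCT and also TGACCC on the other strand and are used by TR2, TR4 and the receptors that pair with RXR. Capitals also mark the glucocorticoid receptor's hexamer AGAACA, which reads as TGTTCT on the other strand. Both strands were searched, and in Hbb-y the last AGAACA shares its first base with the GGGTCA before it. The windows lie at chr7:103853208-103853457 on the minus strand, at chr14:32165539-32165788 on the plus strand and at chrX:140600523-140600772 on the minus strand.
Hbb-y: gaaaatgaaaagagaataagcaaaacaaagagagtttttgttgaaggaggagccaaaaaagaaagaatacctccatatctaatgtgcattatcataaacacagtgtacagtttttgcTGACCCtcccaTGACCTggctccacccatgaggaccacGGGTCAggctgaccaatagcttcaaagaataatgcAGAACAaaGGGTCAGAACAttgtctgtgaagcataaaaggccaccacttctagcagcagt
Ncoa4: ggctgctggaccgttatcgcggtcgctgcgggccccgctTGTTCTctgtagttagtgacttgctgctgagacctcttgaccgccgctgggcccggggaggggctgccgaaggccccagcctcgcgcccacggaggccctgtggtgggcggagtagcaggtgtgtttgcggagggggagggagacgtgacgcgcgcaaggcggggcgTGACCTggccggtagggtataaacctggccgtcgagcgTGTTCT
Tsc22d3: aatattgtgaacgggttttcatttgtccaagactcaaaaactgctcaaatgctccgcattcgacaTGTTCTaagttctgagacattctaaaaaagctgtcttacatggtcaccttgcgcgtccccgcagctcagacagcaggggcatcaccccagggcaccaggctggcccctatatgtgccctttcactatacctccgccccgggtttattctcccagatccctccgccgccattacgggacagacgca
The Hbb-y window held 4 of the receptor hexamers and 2 glucocorticoid hexamers. Among all 32851 windows of this length, 23.8% held at least 1 receptor hexamer and 0.0822% held 4 or more. The Ncoa4 window held 1 receptor hexamer and 2 glucocorticoid hexamers, and the Tsc22d3 window 1 glucocorticoid hexamer. A glucocorticoid hexamer was present in 16.1% of all windows and 2 or more in 1.81%. Ncoa4 and Tsc22d3 have 3 annotated windows each, and the ones shown are those with the most glucocorticoid hexamers. Being chosen for their sites, the windows shown cannot be weighed by these shares. Of all 15 windows searched for members, 4 held a receptor hexamer and 4 a glucocorticoid hexamer. Among these windows, 2 of Ncoa4 overlap and share a TGTTCT. Hba-x, another embryonic globin gene, had neither kind of site in its window. A match is a description of the letters and not a measured binding site.

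Array signal differed between stages in ways that touch several results. All 11 erythroid markers with a probe set reached the median of each of the 11 arrays, and their mean log2 signal was 14.11 and 15.12 on the R5 arrays, against 9.20 and 10.35 on the R1 arrays. Markers of other fetal liver cells were also present: 11 or 12 of 12 granulocyte markers and 7 to 11 of 11 hepatocyte markers reached it on every array. The pyruvate carboxylase control probe sets, whose 3′ signal exceeds the 5′ signal where RNA or its copies are short, differed by 2.27 to 4.62 on the log2 scale on the R3, R4 and R5 arrays and by 0.20 to 1.84 on the R1 and R2 arrays. The part of this difference in the results was not tested. In cell fractions of this kind, fewer cells of a type and less RNA per cell cannot be told apart.

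**Figure D1:**
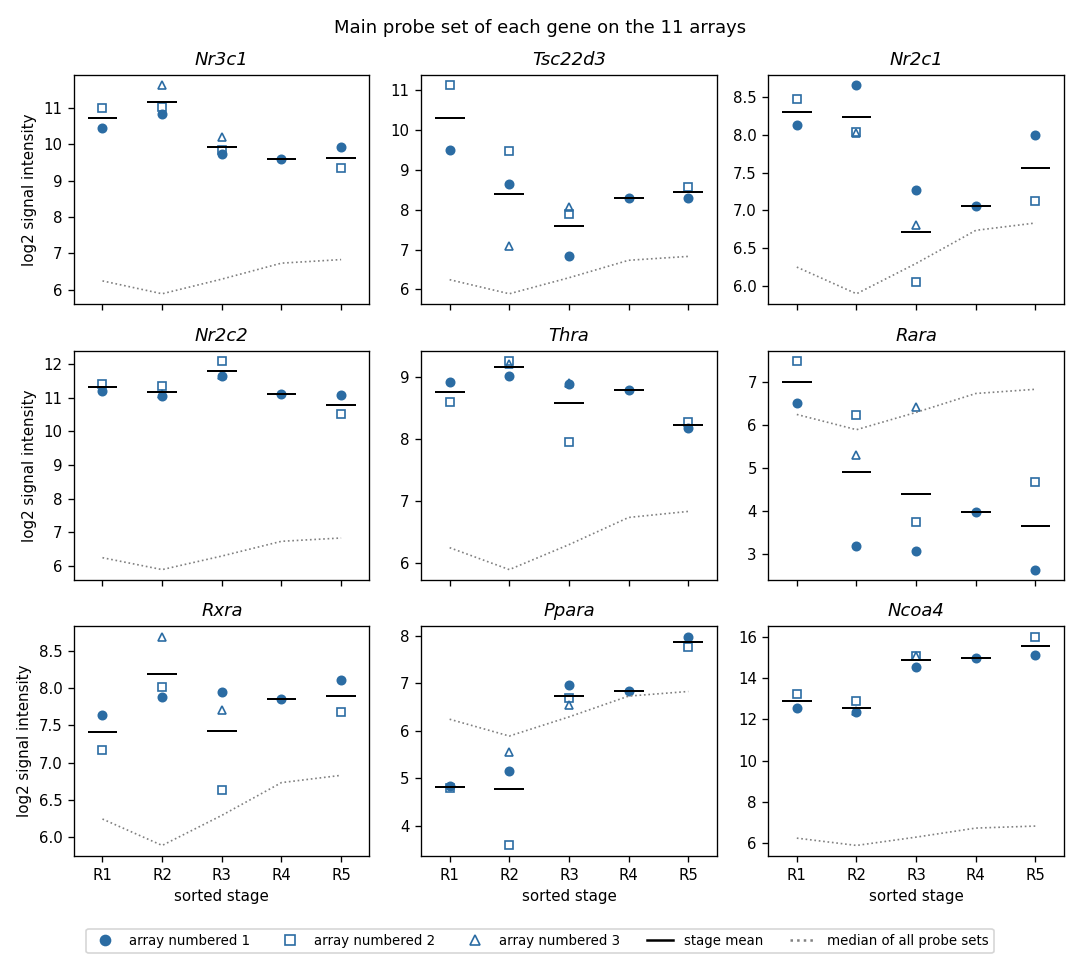
Log2 signal intensity (vertical axis) of the main probe set of each of the 9 genes in the stages R1 to R5 (horizontal axis), with 1 point per array, a bar at the stage mean and a dotted line at the median of all probe sets. Ncoa4 and Ppara sit higher on all arrays of R3, R4 and R5 than on those of R1 and R2, Nr3c1 sits lower, and Rara and Ppara cross the median line.

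Between R3 and R2, the step at which cells gain Ter119 in the published sorting scheme, 4 of the 9 genes passed the test: Ncoa4 and Ppara rose, and Nr3c1 and Nr2c1 fell (limma, Benjamini-Hochberg adjusted p under 0.05 over 13100 genes). Of all genes tested 20.7% were called in this comparison, 10.6% higher and 10.1% lower. That balance depends on the scaling: under median centring of the arrays 862 genes were higher and 3103 lower, against 1388 and 1328 as deposited. Ppara entered the test only through the stages in which it was bright, and with no filter on dim probe sets 3 of the 9 were called, without Ppara. The median change of the 9 genes was -0.57 on the log2 scale, beside -0.14 for all genes. Between R2 and R1 and between R5 and R3 none of the 9 was called by limma and 1 had an unadjusted p under 0.05 in each, Tsc22d3 and Nr2c2. The share of all genes called was 0.466% for R2 against R1 (0.351% higher, 0.115% lower, or 46 and 15 genes, against 57 and 8 after quantile normalization) and 0.00763% for R5 against R3 (0% higher, 0.00763% lower). Between R5 and R2, 3 of the 9 were called, Ncoa4 and Ppara higher and Nr3c1 lower, where 33% of all genes were called, 16.7% higher and 16.3% lower (943 and 5336 genes under median centring, against 2188 and 2133 as deposited). The comparisons of R3 with R2, R5 with R2 and R2 with R1 use the same R2 arrays and are not independent. Over R1, R2, R3 and R5 together, 4 of the 9 differed (limma moderated F-test), where 36.9% of all genes did. In the authors' deposited table, which covers every probe set, the p for R3 against R2 was 0.03 for Ncoa4, 0.079 for Ppara, 0.101 for Nr2c1 and 0.117 for Nr3c1. Its header does not say whether these p-values are adjusted, and of these genes only Ncoa4 was under 0.05 there.

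**Figure D2:**
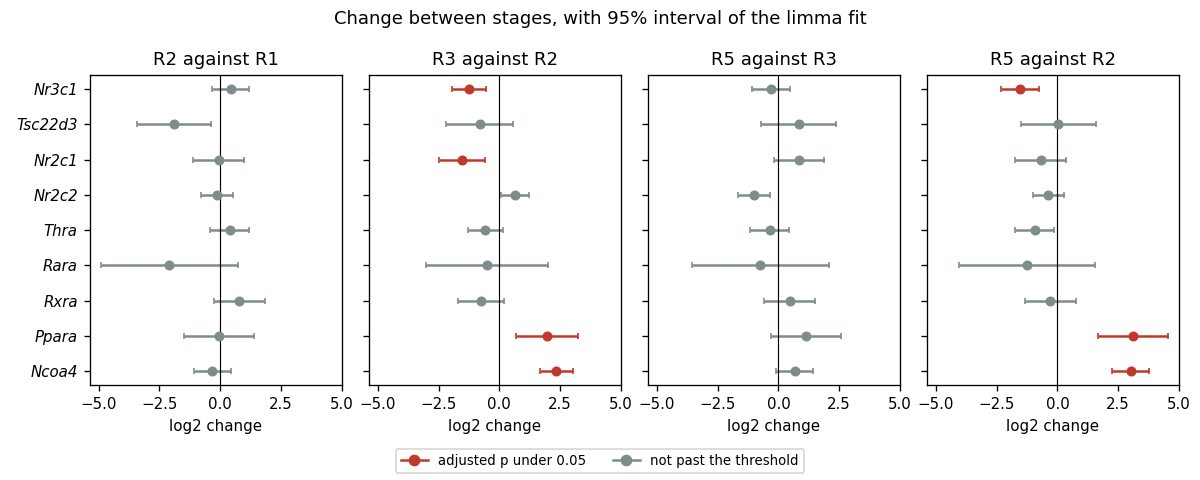
Log2 change (horizontal axis) of each of the 9 genes (vertical axis) in 4 comparisons, with the 95% interval of the limma fit as the bar. Red marks changes with an adjusted p under 0.05, which were 4 for R3 against R2 and 3 for R5 against R2.

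Nr3c1, the glucocorticoid receptor gene, was brightest in R2 and lower from R3 on. Its log2 signal was 10.46 and 11.005 in R1, 10.82, 11.02 and 11.62 in R2, 9.73, 9.84 and 10.20 in R3, 9.60 on the R4 array and 9.92 and 9.34 in R5. No array of R3, R4 or R5 reached the lowest array of R1 or R2. The fall was 1.23 ± 0.32 between R3 and R2 on the log2 scale, or 2.35-fold (SE; 3 arrays of each stage; limma adjusted p = 0.0234). Between R5 and R2 Nr3c1 differed by -1.53 ± 0.35 (SE; 2 and 3 arrays; limma adjusted p = 0.0111). The call for R3 against R2 was lost without R2 replicate 2 or 3 (limma adjusted p = 0.0618 and 0.0597) or R3 replicate 1 or 2 (0.0720 and 0.0799), and that for R5 against R2 without replicate 2 of R5 (0.0903).

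The probe sets of Nr3c1 did not all move alike. Those other than the main one that passed the filter numbered 5, and 4 of them had negative changes between R3 and R2, from -1.39 to -0.58 on the log2 scale, with limma adjusted p from 0.101 to 0.55. Of these, 1460303_at had log2 signals of 9.51, 9.72 and 9.82 in R3 and 10.27, 10.63 and 10.41 in R2. Its fall between R5 and R2 was 1.18 ± 0.35 (SE; limma adjusted p = 0.028). The probe set 1431378_at went the other way, at 7.60, 5.27 and 6.62 in R3 and 5.31, 4.07 and 3.97 in R2, a difference of 2.05 ± 0.78 (limma adjusted p = 0.0806). It reached the array's median on 3 of 11 arrays, and which part of the transcript it detects is not given in the files used here. A mean over all 6 probe sets of the gene gave a change of -0.45 for R3 against R2 (limma adjusted p = 0.542).

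Tsc22d3, the glucocorticoid-induced leucine zipper gene, was brightest in R1. Its log2 signal was 9.50 and 11.13 in R1, 8.65, 9.48 and 7.09 in R2, 6.83, 7.91 and 8.06 in R3, 8.29 on the R4 array and 8.30 and 8.58 in R5. The R2 arrays were all below both R1 arrays, replicate 2 of R2 only just, and they overlapped the R3 arrays. The change between R2 and R1 was -1.90 ± 0.70 (SE; limma adjusted p = 0.27, unadjusted p = 0.02), the interval running from -3.44 to -0.36. Between R3 and R2 it was -0.81 ± 0.62 (limma adjusted p = 0.342), and the moderated F-test over R1, R2, R3 and R5 gave an adjusted p of 0.0505. The 2 other probe sets that passed the filter had changes between R2 and R1 of -1.89 ± 0.72 and -0.98 ± 0.45 (SE; limma adjusted p = 0.287 and 0.385).

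Lymphocyte and mast cell markers were lower in R2 than in R1, as Tsc22d3 was, and so were most markers of other non-erythroid cells. The mean log2 signal of the 10 lymphocyte markers with a probe set was 8.25 and 10.22 in R1, 7.29, 7.71 and 6.03 in R2, 6.19, 7.04 and 6.91 in R3, 7.46 on the R4 array and 8.16 and 8.60 in R5. Their summed signal was 1355 to 8394 on the R2 arrays, against 11782 and 36438 on the R1 arrays, and 6 or 7 of the 10 reached the array's median in R2, against 8 or 9 in R1. As for Tsc22d3, replicate 2 of R1 was the highest array and replicate 3 of R2 and replicate 1 of R3 were the lowest. Named after their values were seen, Ptprc, the pan-leukocyte antigen CD45, had log2 signals of 11.43, 12.00 and 9.12 in R2 and 12.87 and 13.56 in R1. The T cell antigen gene Cd3e was below the array's median on every array. Cd3g, another T cell antigen gene of the list, was above it in R1, at 6.40 and 8.38. In R2 Cd3g was below it, at 3.46, 4.54 and 5.58. All 8 tested mast cell markers had negative changes between R2 and R1, with a median of -2.48, as did all 8 tested lymphocyte markers, with a median of -2.29. The mean of the mast cell markers was 4.97 to 6.72 on the R2 arrays, against 7.56 and 7.95 on the R1 arrays. The mean of the granulocyte markers was likewise highest on replicate 2 of R1 (13.76) and lowest on replicate 3 of R2 (10.96) and replicate 1 of R3 (11.39), and 8 of the 12 had negative changes between R2 and R1. All 12 tested endothelial and all 11 hepatocyte markers also had negative changes between R2 and R1, with medians of -1.32 and -1.25. So did 10 of 12 macrophage and 8 of 10 megakaryocyte markers (medians of -0.81 and -0.76), while all 11 erythroid markers had positive ones. The part of these markers in the Tsc22d3 values was not tested.

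**Figure D3:**
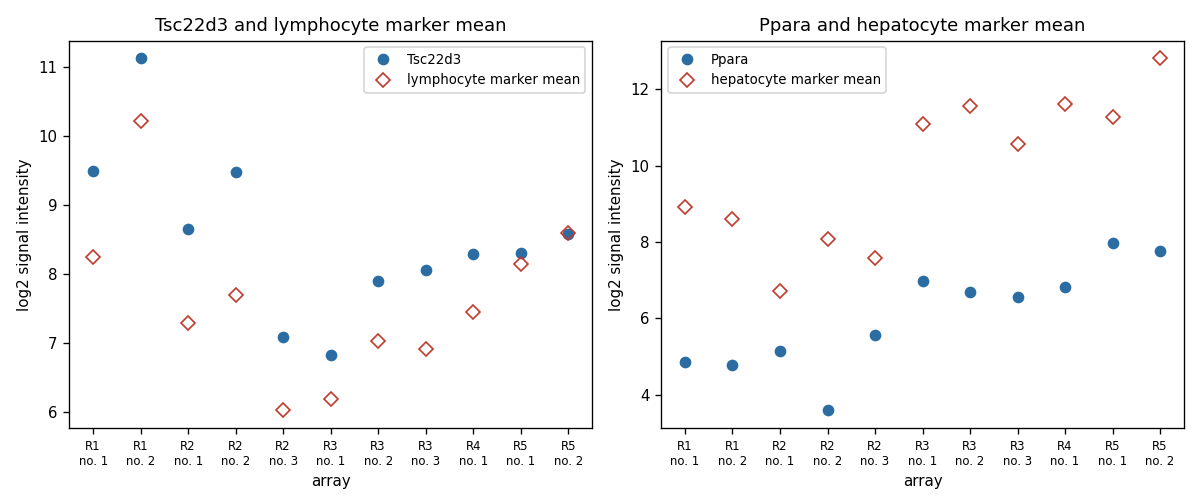
Log2 signal intensity (vertical axis) on each of the 11 arrays (horizontal axis) of Tsc22d3 beside the mean of the lymphocyte markers (left) and of Ppara beside the mean of the hepatocyte markers (right). Tsc22d3 and the lymphocyte mean are both highest on replicate 2 of R1, and Ppara and the hepatocyte mean are both higher on all 6 arrays of R3, R4 and R5 than on the 5 arrays of R1 and R2.

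The glucocorticoid response genes, a list that includes Tsc22d3, went both ways. Of 21 tested, 4 rose and 2 fell between R3 and R2, where 20.7% of all genes were called, with a median change of -0.69 beside -0.14 for all genes. Between R2 and R1 1 fell, where 0.466% of all genes were called, with a median of -1.27, beside -0.05 for all genes. For R5 against R2, 6 rose and 1 fell, a share near the 33% of all genes called. For R5 against R3 limma called none while 18 of the 21 changes were positive. Dusp1, a phosphatase gene that acts on MAP kinases, had log2 signals of 12.31 and 11.81 in R1, 10.77, 9.61 and 9.68 in R2 and 12.73, 12.57 and 12.48 in R3. The R2 arrays were below all those of R1 and R3. It rose by 2.57 ± 0.33 between R3 and R2 (SE; limma adjusted p = 0.0011), a call kept in all 10 fits with 1 array left out. It fell by 2.04 ± 0.37 between R2 and R1 (limma adjusted p = 0.0486), a call kept in 3 of 10, those without R2 replicate 1 or either R5 array, and lost with default eBayes, with only these stages in the fit and with the replicate block. Mt1, a metallothionein gene, rose by 1.83 ± 0.25 and Cdkn1c, a cyclin-dependent kinase inhibitor gene, by 1.68 ± 0.39, while Klf9, which thyroid hormone also induces, fell by 1.82 ± 0.42 (limma adjusted p = 0.00155, 0.0166 and 0.0165). Without R2 replicate 1 or R3 replicate 2 the adjusted p of Cdkn1c and Klf9 reached 0.0726 and 0.0618. Of 10 receptor chaperone genes 2 fell and none rose between R3 and R2, a share near the 20.7% of all genes called, with a median change of -0.80. These were Stip1 (-1.55 ± 0.36) and Fkbp4, a co-chaperone of steroid receptors (-2.24 ± 0.65; limma adjusted p = 0.016 and 0.0358). Stip1 lost its call without R2 replicate 1 or R3 replicate 2 (up to 0.0721). Fkbp4 had another probe set of opposite sign and kept its call in 5 of 10 fits with 1 array left out, and leaving out any R2 array, or R3 replicate 1 or 2, ended it.

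Of the orphan receptor genes, Nr2c1 fell at R3 and Nr2c2 passed no test there. Nr2c1, which encodes TR2, had log2 signals of 8.13 and 8.48 in R1, 8.66, 8.04 and 8.03 in R2, 7.27, 6.05 and 6.80 in R3, 7.06 on the R4 array and 7.995 and 7.12 in R5. All arrays of R3, R4 and R5 were below all those of R1 and R2, and the R5 arrays overlapped those of R3 only through replicate 2. The fall between R3 and R2 was 1.53 ± 0.42 (SE; limma adjusted p = 0.031), or 2.89-fold. The change between R5 and R3 was 0.85 ± 0.47 (limma adjusted p = 0.341). The call was lost without R2 replicate 1 or 2 (limma adjusted p = 0.121 and 0.0722) or R3 replicate 2 or 3 (0.114 and 0.0535).

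Of the 3 other Nr2c1 probe sets that passed the filter, 2 also fell at R3. The probe set 1418605_at had log2 signals of 6.76, 6.10 and 7.21 in R3 and 8.08, 8.22 and 8.08 in R2 and fell by 1.44 ± 0.40 (SE; limma adjusted p = 0.0312). The probe set 1449157_at fell by 2.36 ± 0.72 (limma adjusted p = 0.0422). The probe set 1446194_at, which reached the array's median on 3 of 11 arrays, changed by 0.12 ± 0.82.

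Nr2c2, which encodes TR4, was called in no comparison on its main probe set, which had log2 signals of 11.21 and 11.41 in R1, 11.06, 11.36 and 11.10 in R2, 11.64, 12.09 and 11.68 in R3, 11.11 on the R4 array and 11.09 and 10.50 in R5. The R3 arrays were the 3 highest of the 11. The change was 0.63 ± 0.26 between R3 and R2 and -1.01 ± 0.29 between R5 and R3 (SE; limma adjusted p = 0.101 and 0.136, unadjusted p = 0.0361 and 0.00575). The second of these was called with R5 replicate 1 left out (-1.30, limma adjusted p = 0.0494). The 3 other probe sets that passed the filter had changes of the other sign at R3, each small beside its SE. The probe set 1451569_at was at 7.53, 8.51 and 8.50 in R3 and 8.05, 8.52 and 9.37 in R2, a difference of -0.47 ± 0.50. The 2 other ones, 1425014_at and 1454167_at, gave -0.43 ± 0.50 and -0.53 ± 0.83 (SE; limma adjusted p from 0.504 to 0.652). Between R5 and R3 1451569_at and 1425014_at changed by -1.99 and -0.55, with the sign of the main one, and 1454167_at by 0.87. Between R5 and R2, 1451569_at fell by 2.45 ± 0.56 (limma adjusted p = 0.0108), against -0.38 ± 0.29 for the main probe set (limma adjusted p = 0.324). The sign of the Nr2c2 change at R3 depended on the probe set.

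The main probe sets of the 2 genes were also set side by side, after their values were seen. The log2 signal of Nr2c2 minus that of Nr2c1 lay between 2.41 and 3.32 on the R2 arrays, between 4.37 and 6.04 on the R3 arrays and between 3.10 and 3.38 on the R5 arrays. This is a description: an exact permutation test of 3 against 3 arrays cannot give a p below 0.1. Between R3 and R2 the other Nr2c2 probe sets that passed the filter did not move like the main one.

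**Figure D4:**
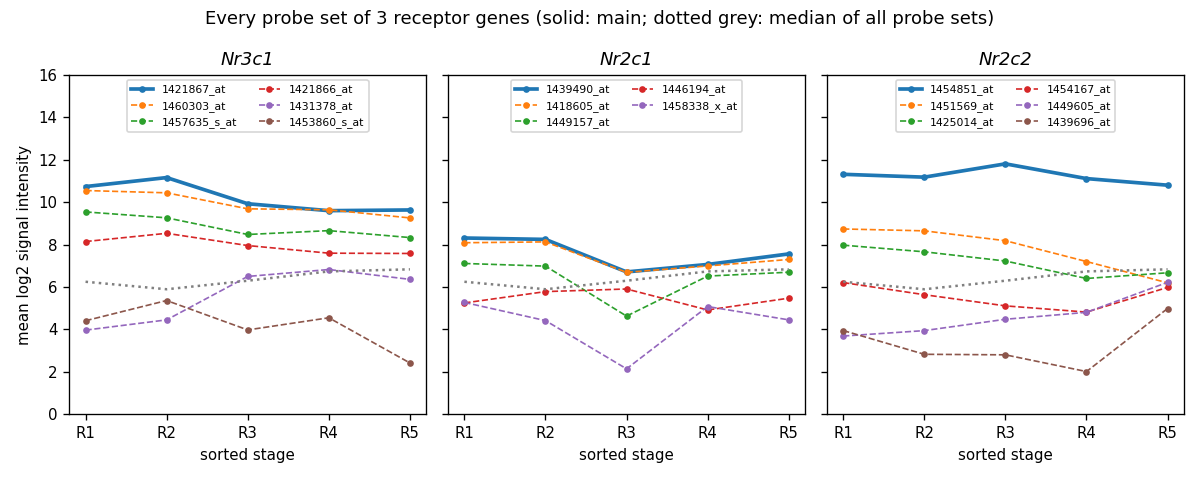
Mean log2 signal intensity (vertical axis) in the stages R1 to R5 (horizontal axis) of every probe set of Nr3c1, Nr2c1 and Nr2c2, with the main one as a solid line and the median of all probe sets dotted. Nr3c1 has 1 probe set that is higher in R3 than in R2, 1431378_at, and the main probe set of Nr2c2 is higher in R3 while the 3 others that passed the filter are lower.

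The 3 embryonic globin genes, of beta type (Hbb-y and Hbb-bh1) and alpha type (Hba-x), all rose between R3 and R2. Their median change was 4.34, and 20.7% of all genes were called in this comparison. Hbb-bh1 had log2 signals of 14.91, 13.41 and 13.65 in R3 and 6.99, 8.24 and 8.47 in R2, and Hbb-y of 15.60, 12.13 and 15.38 in R3 and 10.46, 12.57 and 11.69 in R2. The R3 and R2 arrays overlapped for Hbb-y and not for Hbb-bh1. Hbb-bh1 rose by 6.09 ± 0.59, Hba-x by 4.34 ± 1.28 and Hbb-y by 2.79 ± 0.85 (SE; limma adjusted p = 0.000395, 0.0382 and 0.0417). With 1 array left out, Hbb-bh1 kept its call in 10 of 10 fits, Hba-x in 5 (lost on leaving out any R2 array or R3 replicate 1 or 3) and Hbb-y in 3 (lost on leaving out these or an R1 array). Of 18 partners of the globin silencing complex or known globin regulators, 3 rose and 4 fell between R3 and R2, with a median change of -0.48. Of all genes 10.6% were called higher and 10.1% lower there. Sox6, a repressor of embryonic globin genes, rose by 4.66 ± 0.61, and Klf1, an erythroid activator, by 1.59 ± 0.34 (limma adjusted p = 0.00119 and 0.012). Myb, a progenitor transcription factor gene, fell by 2.21 ± 0.49 and Mta2, a subunit of the NuRD repressor complex, by 1.14 ± 0.33 (limma adjusted p = 0.013 and 0.0364). With 1 array left out, Sox6 kept its call in 10 of 10 fits, Klf1 in 9 (not without replicate 2 of R2), Myb in 8 (not without R2 replicate 1 or R3 replicate 2) and Mta2 in 4 (not without any 1 of the R2 or R3 arrays). Between R5 and R2, 2 of the 18 rose and 8 fell, where 16.7% of all genes were called higher and 16.3% lower. Among those that fell was Bcl11a, a repressor of fetal globin genes in human cells, by 2.37 ± 0.51 (limma adjusted p = 0.00793, or 0.0775 without replicate 2 of R5). Bcl11a had another probe set of opposite sign.

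Thra, the thyroid hormone receptor alpha gene, passed no test on its main probe set. Its log2 signal was 8.92 and 8.60 in R1, 9.01, 9.26 and 9.20 in R2, 8.89, 7.96 and 8.91 in R3, 8.79 on the R4 array and 8.17 and 8.27 in R5. The R2 arrays were the 3 highest. Between R5 and R2 the groups did not overlap and the change was -0.94 ± 0.37 (SE; limma adjusted p = 0.0696, unadjusted p = 0.027), the interval running from -1.75 to -0.13. It was called without R3 replicate 2 (limma adjusted p = 0.0413). The other probe sets of Thra fell further between R5 and R2: 1426997_at by 2.10 ± 0.58 and 1443952_at by 2.53 ± 0.74 (limma adjusted p = 0.0219 and 0.0269). On both of these the R5 arrays lay far apart, at 8.36 and 6.44 and at 8.24 and 5.26.

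Rara, the retinoic acid receptor alpha gene, had 1 probe set, which reached the array's median on 4 arrays. Its log2 signal was 6.51 and 7.49 in R1, 3.18, 6.23 and 5.31 in R2, 3.07, 3.74 and 6.42 in R3, 3.98 on the R4 array and 2.64 and 4.67 in R5. Both R1 arrays were above all the other arrays. The arrays of R2, R3 and R5 overlapped one another, and no comparison passed the test. The change between R2 and R1 was -2.09 ± 1.28 (SE; limma adjusted p = 0.538), with an interval from -4.91 to 0.73.

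Rxra, whose product pairs with the receptors for thyroid hormone, retinoic acid and fatty acids, had log2 signals of 7.65 and 7.18 in R1, 7.88, 8.01 and 8.69 in R2, 7.94, 6.64 and 7.71 in R3, 7.86 on the R4 array and 8.11 and 7.68 in R5. The R1 arrays were below those of R2, R4 and R5, and the R3 arrays overlapped every other stage. The changes were 0.78 ± 0.48 between R2 and R1 and -0.76 ± 0.43 between R3 and R2 (SE; limma adjusted p = 0.537 and 0.197), with intervals from -0.27 to 1.83 and from -1.70 to 0.18. The second probe set, 1425762_a_at, varied from 5.12 to 8.30 within R3 and was at 5.87 and 9.05 on the R5 arrays. Of 10 tested genes of retinoid and thyroid hormone action or metabolism 2 rose and 1 fell between R3 and R2, where 20.7% of all genes were called. Their median change was 0.52. The plasma retinol carrier gene Rbp4 rose by 2.46 ± 0.38 (limma adjusted p = 0.0028), and it is also among the hepatocyte markers.

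Ppara, the fatty acid receptor gene PPAR alpha, was below the array's median in R1 and R2 and above it from R3 on. An array measures small signals, such as those in R1 and R2, with less certainty. Its log2 signal was 4.84 and 4.79 in R1, 5.14, 3.59 and 5.57 in R2, 6.97, 6.69 and 6.55 in R3, 6.83 on the R4 array and 7.98 and 7.77 in R5. All 6 later arrays were above all 5 earlier ones, and the R5 arrays were above those of R3 and R4. The rise between R3 and R2 was 1.97 ± 0.58 (SE; limma adjusted p = 0.0374) and that between R5 and R2 was 3.11 ± 0.65 (limma adjusted p = 0.00718). The call for R3 against R2 was lost without replicate 1 of R1 (limma adjusted p = 0.0503), replicate 1 or 2 of R2 (0.0815 and 0.114) or any 1 of the R3 arrays (0.0922, 0.106 and 0.0598), after quantile normalization (0.0730), with each array centred on its median (0.0620) and without the filter on dim probe sets (0.0523). That for R5 against R2 was kept in all 10 fits with 1 array left out. The other probe set that passed the filter, 1439675_at, changed by 0.69 ± 1.08 between R3 and R2 and by 2.58 ± 1.21 between R5 and R2 (limma adjusted p = 0.65 and 0.115).

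Hepatocyte markers rose together with Ppara, and so did markers of other cells. All 11 hepatocyte markers tested rose between R3 and R2 and between R5 and R2, where 20.7% and 33% of all genes were called. Their median changes were 3.71 and 4.74, and their summed signal was 3502 to 11504 in R2, 70615 to 115610 in R3 and 87442 and 248170 in R5. In R2 7 to 9 of the 11 reached the array's median and in R3 and R5 all 11. Alb, the albumin gene, had log2 signals of 10.22, 10.92 and 10.79 in R2, 14.67, 15.17 and 14.39 in R3 and 14.56 and 16.22 in R5. Between R2 and R1 all 11 hepatocyte markers had negative changes, with a median of -1.25, against -0.05 for Ppara. All 11 erythroid markers also rose between R3 and R2, and 10 of them between R5 and R2, with medians of 2.65 and 2.81. The medians were 1.03 and 1.45 for macrophage and 1.10 and 1.91 for endothelial markers. Between R3 and R2, 1 of 12 macrophage and 4 of 12 endothelial markers had negative changes. The part of these markers in the Ppara values was not tested. Of 16 tested PPAR target genes of fatty acid oxidation 2 rose and 4 fell between R3 and R2, with a median change of -0.04. Of all genes 10.6% were called higher and 10.1% lower there. The fatty acid binding protein gene Fabp1, which hepatocytes express, rose by 3.46 ± 0.42, while Acadm, a mitochondrial acyl-CoA dehydrogenase gene, fell by 1.45 ± 0.26 (limma adjusted p = 0.000921 and 0.00545), and both calls were kept in all 10 fits with 1 array left out. Fabp1 was dim in R2, at 4.73, 5.53 and 5.80, below each array's median. Like Ppara, it needed the later, brighter stages to pass the filter.

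Ncoa4, the ferritin cargo receptor and coactivator gene, rose at R3 on both of its probe sets. Its log2 signal was 12.55 and 13.22 in R1, 12.36, 12.89 and 12.42 in R2, 14.56, 15.07 and 15.08 in R3, 14.97 on the R4 array and 15.14 and 16.001 in R5. In order of level R5 was highest, then R4 and R3, then R1 and R2. The neighbours R4 and R3 overlapped, as did R1 and R2, and both R5 arrays were above those of R3 and R4. The rise between R3 and R2 was 2.35 ± 0.31, or 5.09-fold (SE; limma adjusted p = 0.00119), and between R5 and R2 it was 3.01 ± 0.35, or 8.08-fold (limma adjusted p = 0.000341). The change between R5 and R3 was 0.67 ± 0.35 (limma adjusted p = 0.31). The other probe set, 1450006_at, had log2 signals of 14.60, 14.93 and 14.28 in R3 and 11.46, 11.53 and 11.58 in R2, a rise of 3.07 ± 0.38 (limma adjusted p = 0.000922). Both calls of the main probe set were kept in all 10 fits with 1 array left out.

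Of 17 tested genes of ferritin, its delivery to the lysosome, and iron transport and sensing, 10 rose and 1 fell between R3 and R2. Of all genes 20.7% were called in that comparison. The median change of the 17 was 1.33, beside -0.14 for all genes. Between R5 and R2, 10 rose and 2 fell, where 33% of all genes were called. Those that rose between R3 and R2 include the transferrin receptor gene Tfrc, which is also among the erythroid markers. The 1 that fell was Aco1, an iron-sensing gene. Gabarapl2, an Atg8-family gene of the autophagosome membrane, had log2 signals of 13.76, 14.04 and 13.35 in R3 and 11.01, 10.60 and 11.22 in R2 and rose by 2.77 ± 0.33 (SE; limma adjusted p = 0.000883). The autophagy kinase gene Ulk1 rose by 2.68 ± 0.34, Map1lc3a by 2.17 ± 0.54 and Map1lc3b by 1.89 ± 0.27 (limma adjusted p = 0.00101, 0.0209 and 0.00182), and the call of Map1lc3a was lost without R2 replicate 1 or R3 replicate 1. Fth1, the ferritin heavy chain gene, named here after its values were seen, was at 15.96, 15.92 and 16.07 in R3 and 14.51, 14.44 and 15.02 in R2 and rose by 1.33 ± 0.23 (limma adjusted p = 0.00435).

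Of 16 tested coactivator genes 2 rose and 3 fell between R3 and R2, with a median change of -0.51, and of 10 corepressor genes none rose and 3 fell, with a median of -0.05, where 20.7% of all genes were called. Ncoa7, a coactivator of estrogen receptors, rose by 2.82 ± 0.40 and the acetyltransferase gene Kat2a fell by 2.66 ± 0.55 (SE; limma adjusted p = 0.00176 and 0.0104), both in all 10 fits with 1 array left out. Hdac3, the deacetylase of the NCoR and SMRT corepressor complexes, fell by 1.05 ± 0.27 (limma adjusted p = 0.0228) and kept its call in 5 of 10, and leaving out any R2 array, or R3 replicate 1 or 2, ended it.

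Among 26 other nuclear receptor genes that were tested, 2 rose and 1 fell between R3 and R2, or 3 of 26, where 20.7% of all genes were called. Hnf4a, a receptor of hepatocytes and one of the hepatocyte markers above, had log2 signals of 8.23, 7.66 and 7.44 in R3 and 3.92, 5.40 and 5.55 in R2 and rose by 2.82 ± 0.49 (SE; limma adjusted p = 0.00492), with another probe set of opposite sign. Hnf4a was below the median of each R2 array and needed the later, brighter stages to pass the filter. Rora, an orphan receptor gene, rose by 2.24 ± 0.53 and Esrra, a receptor gene of mitochondrial metabolism, fell by 1.49 ± 0.35 (limma adjusted p = 0.0174 and 0.0173). Rora was dim, at 5.79, 6.52 and 6.20 in R3 and 4.21, 3.53 and 4.06 in R2. Of these arrays only replicate 2 of R3 reached the array's median for Rora. In R1 Rora was at 7.22 and 6.65. Rora lost its call without R2 replicate 2 or R3 replicate 2 (limma adjusted p up to 0.0758) and Esrra without R2 replicate 1 or 2 or R3 replicate 2 (up to 0.0721).

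For each member the 2 tested genes with the most similar log2 signal over the 11 arrays were found by Pearson's r, as a description of arrays that share RNA samples and scaling. For Ncoa4 they were Gpcpd1 and Nfe2 (r = 0.993 and 0.992), for Ppara Lgals2 and Cdh6 (0.975 and 0.971), for Nr3c1 Tent4b and Etfrf1 (both 0.967) and for Nr2c1 Fbxo4 and Pdcl3 (0.970 and 0.964). For Tsc22d3 they were Ets1 and Cybb (0.976 and 0.975), for Nr2c2 Larp4b and Zbtb22 (0.938 and 0.926) and for Thra Gga2 and Exosc3 (0.940 and 0.930). For Rxra they were Tjp1 and Cryz (0.928 and 0.911) and for Rara Zup1 and N4bp2l1 (0.889 and 0.829), the lowest values of the 9.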

How the data were processed

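Arrays measured RNA of sorted fetal liver cells in 5 stages. The table the authors deposited gives linear intensity values of 45101 probe sets, 64 of them controls. MAS5 and limma stand without versions in the submitters' processing notes. Every array had a trimmed mean of 500. Stage means on the log2 scale, log2 differences to R2 and p-values stand in another deposited table, whose means matched those of log2 intensity within 0.005. Precision is limited by the number of arrays.

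The deposited intensity was taken to log2 and scaled no further, and gene names came from the platform annotation, where of the probe sets 34945 had 1 gene, 932 several and 9160 none listed. The brightest probe set stood for each gene, and a gene was tested where it reached the median signal of 2 or more arrays. All 11 arrays entered 1 limma fit with a mean per stage and an intensity trend (limma 3.58.1, R 4.3.3; 6 residual and 4.83 prior degrees of freedom), with Benjamini-Hochberg adjustment over 13100 genes. The single R4 array gives levels only. The fit was tested on simulated data. Upstream windows were RefSeq's (GRCm38.p6), and those of 7 of the 9 genes were searched.

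The members, the 10 gene lists and the 8 marker lists were chosen with earlier results of these data known. From each list up to 4 called genes with the largest change per comparison may be named. Alternatives were other scalings, no filter, an added 50, default eBayes, fewer stages, the replicate number as a block, arrays left out in turn and other probe sets.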

Additional observations from a re-analysis of the deposited data

How the results depend on the processing

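Leave-one-out fits moved most counts. The genes called ranged from 0 to 87 for R2 against R1 (61 with all arrays), from 840 to 3920 for R3 against R2 (2716), from 0 to 633 for R5 against R3 (1), from 1053 to 5041 for R5 against R2 (4321) and from 2695 to 6131 over R1, R2, R3 and R5 (4839). Counts moved by over 1.5 times without any array of R1, R2 or R3 for R2 against R1, without replicate 1 or 2 of either stage for R3 against R2 (840, 1095, 1515 and 845), in every fit for R5 against R3 (633 without replicate 1 of R5 and 0 in the others), without replicate 1 or 2 of R2 or 2 of R5 for R5 against R2 (2460, 2724 and 1053) and without either R1 array, replicate 1 of R2 or 1 of R3 over all stages (3082, 2769, 2695 and 3124). In the order of the comparisons, of the 9 genes 0, 1 to 4, 0 to 1, 2 to 4 and 3 to 5 were called. Each array centred on its median gave 100 genes for R2 against R1 and 588 for R5 against R3, and of the 9 genes 1 for R5 against R3, 6 for R5 against R2 and 7 over all stages. This centring placed the median change of all genes at 0.30 for R2 against R1, -0.55 for R3 against R2, -0.34 for R5 against R3 and -0.94 for R5 against R2, beside -0.05, -0.14, 0.20 and 0.00 as deposited. For R5 against R3, quantile normalization gave 14 genes, an added 50 gave 95, no filter and default eBayes 0. For R2 against R1 default eBayes gave 0. With only the stages compared, 0 genes were called for R2 against R1 and for R5 against R3, and 2715 for R5 against R2.

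With the replicate block, 0 genes were called for R2 against R1, 4197 for R3 against R2 and 169 for R5 against R3, and the block changed none of the calls of the 9 genes in these comparisons or in R5 against R2, while over R1, R2, R3 and R5 it called 5 of them, against 4 without it. Of 13 pairs of same-numbered arrays, 10 had deviations from the stage means that correlated above 0.1 (from -0.15 to 0.40), against 4 of 24 pairs of different number, and 7 of 10 arrays correlated best with their own number. In a stage of 2 arrays the deviations mirror each other, so pairs with R1 or R5 arrays repeat one another. These counts are therefore not of independent pairs. Neither they nor the labels settle whether a number is a batch, and not every pair reached 0.1, so the numbers were not taken as pairs.

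Signs turned for the 9 genes in these cases. After quantile normalization, Ppara changed by 0.25 (R2 against R1) and Nr2c1 changed by 0.14 (R2 against R1). With each array centred on its median, Ppara changed by 0.30 (R2 against R1), Nr2c1 changed by 0.29 (R2 against R1), Nr2c2 changed by 0.22 (R2 against R1), Ncoa4 changed by 0.029 (R2 against R1), Rxra changed by -0.0703 (R5 against R3) and Tsc22d3 changed by -0.91 (R5 against R2). With 50 added to the intensity, Ppara changed by 0.0369 (R2 against R1) and Tsc22d3 changed by -0.0114 (R5 against R2). With the mean of all probe sets, Ppara changed by 0.88 (R2 against R1), Nr2c2 changed by -0.0481 (R3 against R2), Nr2c2 changed by 0.21 (R5 against R3), Rxra changed by 0.16 (R5 against R2) and Nr2c2 changed by 0.16 (R5 against R2). With the replicate block, Tsc22d3 changed by -0.18 (R5 against R2). Other probe sets of Nr3c1 gave -0.11 with 1460303_at (R2 against R1), -0.28 with 1457635_s_at (R2 against R1), 2.05 with 1431378_at (R3 against R2) and 1.91 with 1431378_at (R5 against R2). Other probe sets of Ppara gave 2.80 with 1439675_at (R2 against R1). Other probe sets of Nr2c1 gave 0.0395 with 1418605_at (R2 against R1), 0.53 with 1446194_at (R2 against R1), 0.12 with 1446194_at (R3 against R2) and -0.43 with 1446194_at (R5 against R3). Other probe sets of Nr2c2 gave -0.47 with 1451569_at (R3 against R2), -0.43 with 1425014_at (R3 against R2), -0.53 with 1454167_at (R3 against R2), 0.87 with 1454167_at (R5 against R3) and 0.34 with 1454167_at (R5 against R2). Other probe sets of Tsc22d3 gave -0.16 with 1425281_a_at (R5 against R2). With arrays left out in turn the changes that turned ranged from -0.45 to 0.54 for Ppara (R2 against R1), -0.27 to 0.11 for Nr2c1 (R2 against R1), -0.66 to 0.00967 for Ncoa4 (R2 against R1), -1.51 to 0.17 for Rara (R3 against R2), -1.77 to 0.27 for Rara (R5 against R3) and -0.63 to 0.57 for Tsc22d3 (R5 against R2). The cause was not tested. With 1 array left out, 332 changes of the 9 genes kept direction and call, 15 lost the call, 2 gained it and 11 turned. All changes of Ncoa4 for R3 against R2 and R5 against R2 stayed called under the alternatives run, other probe set included. The calls that centring added for Nr2c1, Nr2c2 and Thra for R5 against R2 (-1.62, -1.32 and -1.88) and for Nr2c2 for R5 against R3 (-1.54) follow its shift of all genes. Dim probe sets limit what can be said of Rara and Ppara.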
